A study of Danio rerio with 6 samples.

Results

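In zebrafish hearts collected 9 days post amputation (dpa), the sites of 2 marks on lysine 9 of histone H3 were set against each other. After repeated listings of the same chromosome, start and end were removed, there were 4771 peaks of trimethylation (H3K9me3, written H3K9M3 by the submitters) and 17223 peaks of acetylation (H3K9ac). These 21994 peaks were part of the 66487 peaks of the whole series. A peak that shared at least 1 base with a peak of the other mark was called overlapping, and the rest were called H3K9me3 only or H3K9ac only.

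Both libraries were made by chromatin immunoprecipitation and sequencing from heart tissue of fish 1 to 1.5 years old whose ventricle tip had been cut. One library was immunoprecipitated with an antibody to H3K9me3 and the other with an antibody to H3K9ac, both at 9 dpa. Libraries of both marks from 6 dpa and from uncut hearts were used to ask whether a 9 dpa site had a peak there too, and with how many tags. Their lists also supplied part of the annotated transcripts. At 9 dpa there is 1 library for each mark, so the marks were not tested against each other at that time, and the other times were not used as its replicates. The intervals below are Wilson 95% intervals that cover counting error only.

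H3K9me3 is written by SUV39 and SETDB family methyltransferases, is read by HP1 proteins and is known for silenced chromatin over repeats and genes that are kept off. H3K9ac is written by GCN5 and PCAF type acetyltransferases and is known for the start sites of active genes. Trimethylation and acetylation cannot sit on the same lysine at once, but heart tissue holds cardiomyocytes, endocardium, epicardium, blood and other cells, and a tissue library adds their chromatin together.

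The H3K9me3 peaks covered 5.66 Mb and held 416546 tags, which are sequenced reads counted inside a peak, against 28.47 Mb and 2206341 tags for the H3K9ac peaks. Tags were not scaled between libraries. The background read rate was therefore estimated as the rate most often implied by the tags and score of the peaks, and was 9.24 reads per kb in the H3K9me3 library and 15.01 reads per kb in the H3K9ac library. Of the 13 heart markers examined, 9 were among the genes in the deposited annotation. Those 9 had no H3K9me3 peak at the promoter, and each of the 9 had an H3K9ac peak there, with 64 to 577 tags. They included myl7, the atrial and ventricular light chain of zebrafish myosin, with 67 tags, and hand2, a transcription factor of heart development, with 577 tags. Of the markers of other tissues, 3 genes were annotated, none with H3K9me3 and 2 with H3K9ac at the promoter, krt4 with 63 tags and slc20a1a with 192 tags. Over all annotated genes, 1.83% had an H3K9me3 peak at the promoter and 85.4% had an H3K9ac peak. With panels this small, these counts give no result about the markers.

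H3K9me3-only peaks held the smaller part of that mark's raw tags, although they were the larger part of its sites. There were 2680 of them, 56.2% of the H3K9me3 list (interval 54.8 to 57.6%), and they held 26.9% of its tags. The other 2091 H3K9me3 peaks, 43.8% (42.4 to 45.2%), overlapped H3K9ac and held 73.1% of the tags on 54.4% of the covered length. Of these 2091 peaks, 122 held 500 or more tags each, and such peaks weigh heavily in a share of tags. From the side of acetylation the overlap was minor. It took in 2091 H3K9ac peaks, 12.1% of that list (11.7 to 12.6%), with 13.8% of its tags, and 15132 peaks were H3K9ac only.

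The lengths and raw tags of the peaks were graded in the same order. The median length was 823 bases for H3K9me3-only peaks, 1105 bases for overlapping H3K9me3 peaks, 1244 bases for overlapping H3K9ac peaks and 1548 bases for H3K9ac-only peaks. The median peak held 28 tags among H3K9me3-only peaks, 51 tags among overlapping H3K9me3 peaks, 65 tags among overlapping H3K9ac peaks and 109 tags among H3K9ac-only peaks. Per kb over the estimated background of each library the order was another, with medians of 3.701 times in H3K9me3-only peaks, 4.69 times in overlapping H3K9me3 peaks, 3.33 times in overlapping H3K9ac peaks and 4.53 times in H3K9ac-only peaks. The middle of the distribution and its upper end were not ordered alike. Peaks of 500 or more tags numbered 10 among H3K9me3-only peaks, 122 among overlapping H3K9me3 peaks, 100 among overlapping H3K9ac peaks and 68 among H3K9ac-only peaks, so the sites with the most reads lay mainly where the lists overlapped.

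**Figure D1:**
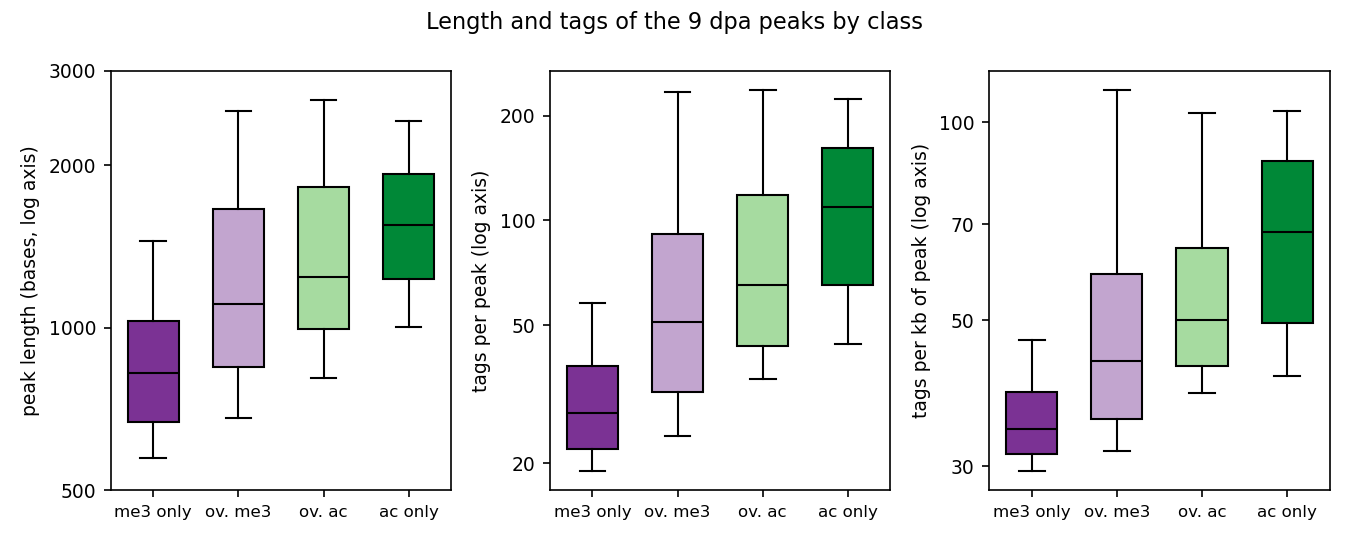
Peak length in bases, tags per peak and tags per kb (log axes) for H3K9me3-only peaks (me3 only), overlapping H3K9me3 peaks (ov. me3), overlapping H3K9ac peaks (ov. ac) and H3K9ac-only peaks (ac only) at 9 dpa. Lines mark medians, boxes the quartiles and whiskers the 10th and 90th percentiles; the median of tags per kb is 34.2 for H3K9me3-only peaks, 43.3 and 49.97 for the overlapping peaks of H3K9me3 and H3K9ac, and 68.0 for H3K9ac-only peaks.

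By position the overlapping sites were close to the H3K9me3-only sites and far from the H3K9ac-only sites. A transcription start site (TSS) of an annotated transcript lay within 2 kb of 1.98% of H3K9me3-only peaks (interval 1.52 to 2.58%), 3.40% of overlapping H3K9me3 peaks (2.701 to 4.261%) and 3.25% of overlapping H3K9ac peaks (2.57 to 4.10%). The share was 52.5% of H3K9ac-only peaks (51.7 to 53.3%). A position outside annotated transcripts and TSS windows was held by 74.9% of H3K9me3-only peaks, 75.9% of overlapping peaks of either mark and 40.8% of H3K9ac-only peaks. The median distance from a peak to the nearest annotated TSS was 72.0 kb for H3K9me3-only peaks, 70.6 kb for overlapping H3K9me3 peaks, 70.8 kb for overlapping H3K9ac peaks and 1.13 kb for H3K9ac-only peaks. Annotated transcripts are only those assigned to a peak in at least 1 of the 6 libraries, so the start sites of other genes are left out. That filter draws on H3K9ac peaks, and its part in these shares and distances was not tested.

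**Figure D2:**
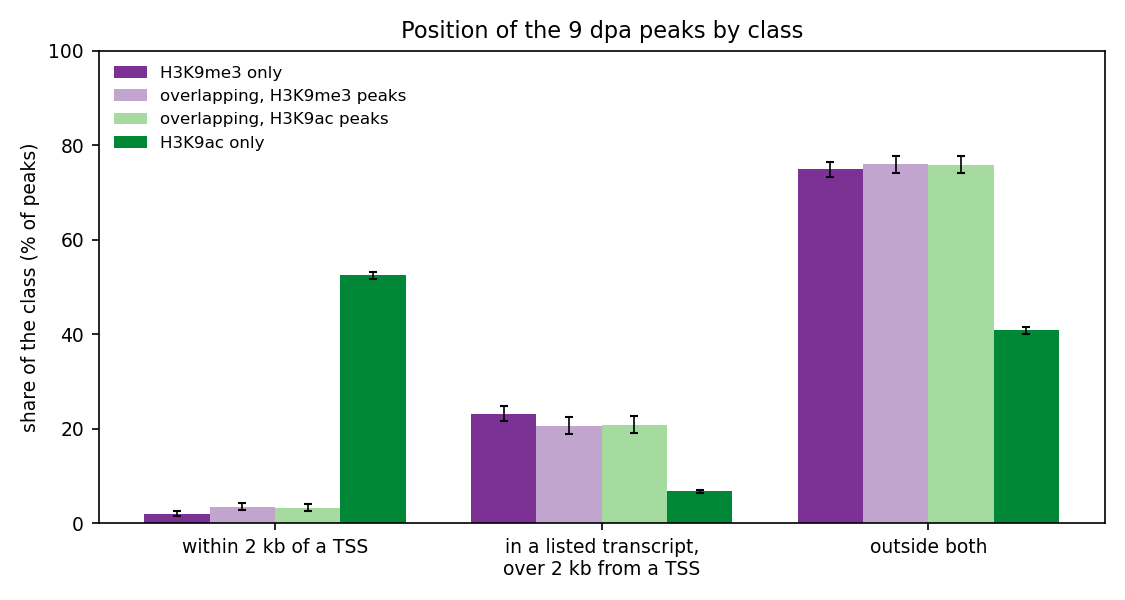
Share of peaks (percent of the class) within 2 kb of a TSS, in an annotated transcript farther than that from a TSS, and outside both, for the classes at 9 dpa. Bars are shares and lines the Wilson 95% intervals; the first 3 classes stand at 2 to 3.4% within 2 kb of a TSS and H3K9ac-only peaks at 52.5%.

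The feature labels that the authors attached to each peak gave the same picture inside genes. Intron and no other feature was the label of 22.4% of H3K9me3-only peaks, 19.7% of overlapping H3K9me3 peaks, 19.1% of overlapping H3K9ac peaks and 5.51% of H3K9ac-only peaks. A 5′ UTR label was rare outside the H3K9ac-only peaks. It stood on 0.187% of H3K9me3-only peaks, 0.670% of overlapping H3K9me3 peaks, 1.67% of overlapping H3K9ac peaks and 48.6% of H3K9ac-only peaks. The deposited upstream and downstream labels around a TSS followed the strand of the gene and not the side of the peak. Of the H3K9me3 pairs of peak and transcript labelled upstream, 251 belonged to plus-strand genes and 3 to minus-strand genes, and 180 of those 251 had the centre of the peak downstream of the TSS, so these labels were read only as closeness to a TSS.

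On the chromosomes, H3K9me3 was dense on the long arm of chromosome 4, a late-replicating, repeat-rich arm in zebrafish that holds few conserved single-copy genes. Taken from 28 Mb onward in danRer10, the arm spans 48.6 Mb, 3.63% of the span of all 25 chromosomes in the lists. It held 351 H3K9me3-only peaks, 13.1% of that class (interval 11.9 to 14.4%), and 10.6% of overlapping H3K9me3 peaks (9.32 to 11.96%). It held 10.7% of overlapping H3K9ac peaks and 3.38% of H3K9ac-only peaks (3.11 to 3.68%). Per Mb, the arm had 4.004 times as many H3K9me3-only peaks as the rest of the genome, 3.14 times as many overlapping H3K9me3 peaks and 0.930 times as many H3K9ac-only peaks.

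The rest of chromosome 4, up to 28 Mb, did not share this density. It held 0.929 H3K9me3-only peaks per Mb, against 7.22 per Mb on the long arm. Elsewhere the highest chromosome for H3K9me3-only peaks was chromosome 22 at 2.702 per Mb, and the lowest was chromosome 1 at 1.26 per Mb. Chromosome 22 also held the most H3K9ac-only peaks, 16.6 per Mb, and its window from 2 to 3 Mb alone held 90 of them. The most crowded 1 Mb window of H3K9me3-only peaks lay on chromosome 17 from 52 to 53 Mb and held 15.

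Where the marks overlapped, the paired peaks had nearly the same extent and nearly the same tags. The 2091 peaks of each mark formed 2105 overlapping pairs. The median pair shared 1007 bases, which was 97.7% of the H3K9me3 peak and 88.0% of the H3K9ac peak, and in 1889 pairs (89.7%) the shared bases were at least 50% of both peaks. The summits, the points of highest read density, lay a median of 54 bases apart. Tags of the pair were within 2-fold of each other in 1756 pairs (83.4%). Across the pairs the tags of one mark followed those of the other, with a Pearson correlation of log2 tags of 0.86 and a Spearman correlation of 0.72 over 2105 pairs, given as a description since the pairs share libraries and peak lengths.

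**Figure D3:**
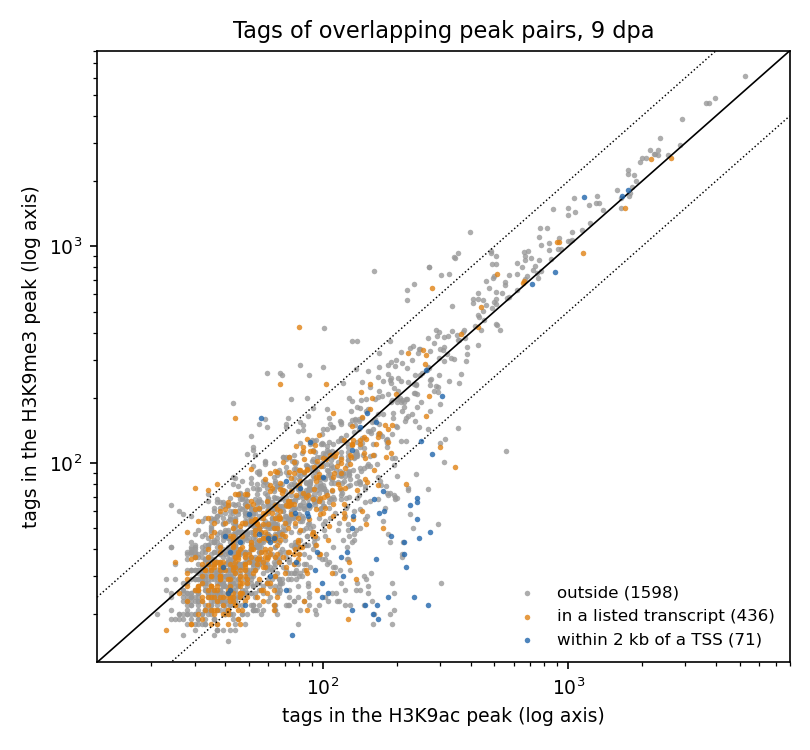
Tags in the H3K9me3 peak (vertical, log axis) against tags in the H3K9ac peak (horizontal, log axis) for the 2105 overlapping pairs at 9 dpa, coloured by position. The solid line marks equal tags and the dotted lines a 2-fold difference; 1756 pairs lie between the dotted lines, and the pairs at a TSS lie mostly below the solid line.

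The unequal read depth of the libraries and the lengths of the peaks set how equal tags are read. In raw tags the H3K9me3 peak was the higher one in 691 pairs (32.8%), with a median log2 ratio of H3K9me3 to H3K9ac of -0.25. In tags per kb of peak, divided by each library's own background rate, the H3K9me3 peak was the higher one in 1959 pairs (93.1%). The median log2 ratio on that scale was 0.52. The direction of this comparison therefore turned with the scaling. That scaling takes in peak length as well as background, and the H3K9me3 peak was a median of 0.929 times as long as its partner. The parts of length and of depth were not separated. In tags per kb over background, no pair had an H3K9ac peak 4-fold or more above its H3K9me3 partner, and 4 had the reverse.

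The 71 pairs within 2 kb of a TSS looked different from the other pairs. Their H3K9me3 peaks had a median length of 1028 bases and their H3K9ac peaks of 1919 bases, and the median log2 ratio of tags was -1.22. Summits were a median of 164 bases apart. Only 31 of these 71 pairs had tags within 2-fold, so at promoters a short H3K9me3 peak usually lay inside a longer H3K9ac peak with more raw tags, while away from promoters the peaks of the pair mostly coincided. Per kb over the background of each library the median log2 ratio of these 71 pairs was 0.23, and H3K9me3 was the higher mark in 44 of them. No test of this difference between positions was made, because all pairs come from the same 2 libraries.

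Some of the highest overlapping sites held similar tags in every library of the series. At chr20:6460253-6462563, outside annotated transcripts, the H3K9me3 peak held 2773, 2961 and 2941 tags in uncut, 6 dpa and 9 dpa hearts, and the H3K9ac peak held 2893, 2886 and 2864 tags. At chr11:17430003-17434840, also outside transcripts, the H3K9me3 values in the same order were 3823, 5578 and 4865 tags and the H3K9ac values were 4150, 4081 and 3961 tags. The background rate of the libraries ran from 4.10 reads per kb for H3K9me3 in uncut hearts to 15.01 for H3K9ac at 9 dpa, while all 6 values at the chromosome 20 site lay between 2773 and 2961 tags. The part that library depth and sequence content have in these sites was not tested, and an input library was not used here.

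Several of the highest overlapping sites lay inside genes. A 3.8 kb site in cpne5, which encodes a calcium-dependent membrane-binding copine, chr11:2954916-2958702, held 1662, 2686 and 2533 H3K9me3 tags in uncut, 6 dpa and 9 dpa hearts and 2230, 2151 and 2165 H3K9ac tags. In raf1a, a kinase of the MAP kinase cascade, the site at chr23:4784552-4789291 held 800, 1793 and 1511 H3K9me3 tags and 1745, 1550 and 1702 H3K9ac tags. A site of 800 bases annotated to mybpc2b, a myosin-binding protein of fast muscle, and to zgc:153659, chr24:38404473-38405272, held 349, 469 and 393 H3K9me3 tags and 394, 380 and 364 H3K9ac tags. At each of these 3 sites both marks were called in all 6 libraries.

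Recurrence in all 6 libraries was more frequent at sites with more tags. Of overlapping sites whose H3K9ac peak had fewer than 50 tags at 9 dpa, 189 of 712 (26.5%) had a peak in all 6 lists. Of the 100 sites with 500 tags or more, 84 did. Among those 84 sites the median was 804.5, 1218 and 1098 H3K9me3 tags in uncut, 6 dpa and 9 dpa hearts, and 1018, 884.5 and 997 H3K9ac tags. In 50 of the 84 sites all 6 values were within 2-fold of each other. In 99 of the 100 pairs with 500 or more H3K9ac tags the 2 marks were within 2-fold at 9 dpa, and the summits were a median of 22 bases apart.

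H3K9me3 peaks of high score overlapped H3K9ac more often than those of low score, and no such order held for H3K9ac peaks. The score is the authors' value from the peak caller, and a larger one marks a lower p-value. H3K9me3 peaks overlapped H3K9ac in 30.1% of cases below a score of 100 (interval 28.6 to 31.7%), 69.6% from 100 to 200 (66.6 to 72.4%), 92.5% from 200 to 400 (88.4 to 95.2%) and 98.4% at 400 and more (95.3 to 99.4%, 179 of 182 peaks). H3K9ac peaks overlapped H3K9me3 in 20.2%, 12.9%, 3.79% and 10.3% of cases in the same bands. Number of tags ordered the H3K9ac peaks otherwise: 59.5% of those with 500 or more tags overlapped H3K9me3, and 84.9% of those with 1000 or more.

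**Figure D4:**
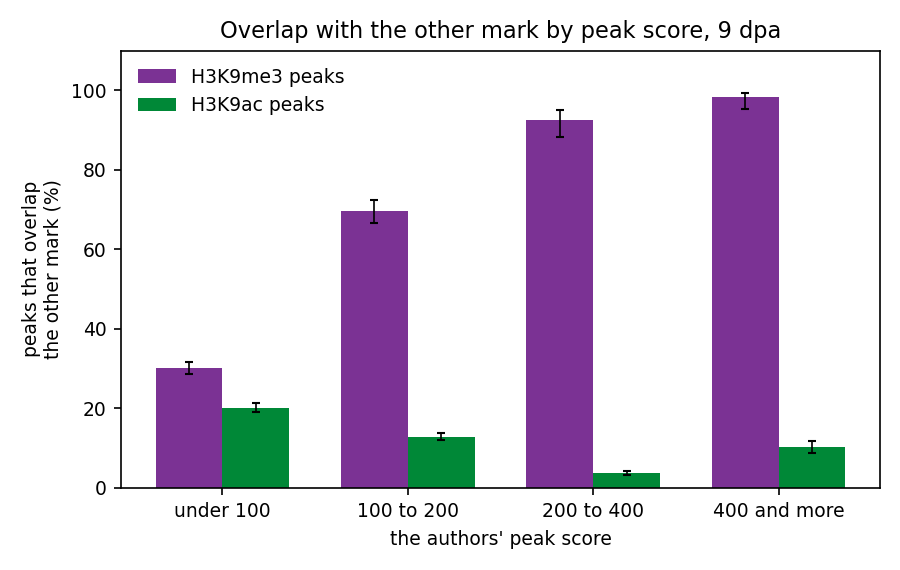
Share of H3K9me3 peaks and of H3K9ac peaks (percent) that overlap a peak of the other mark at 9 dpa, in bands of the authors' peak score. Bars are shares and lines the Wilson 95% intervals; the share of H3K9me3 peaks goes from 30.1% in the lowest band to 98.4% in the highest, and that of H3K9ac peaks lies between 3.79 and 20.2%.

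The overlap of H3K9ac peaks varied with position more than that of H3K9me3 peaks. Of the 8007 H3K9ac peaks within 2 kb of a TSS, 68 overlapped H3K9me3 (0.849%, interval 0.670 to 1.07%), against 30.05% of those inside transcripts (27.7 to 32.5%), 20.4% of those outside (19.6 to 21.4%) and 30.4% of those on the chromosome 4 long arm. H3K9me3 peaks overlapped H3K9ac in 57.3% of cases near a TSS (71 of 124), 41.1% inside transcripts, 44.2% outside and 38.6% on the long arm. When the H3K9ac list was reduced to its 4771 highest-scoring peaks, 5.85% of H3K9me3 peaks overlapped it. That cut changed the kind of peak as well as the list length. Of the H3K9ac-only peaks left, 69.75% were within 2 kb of a TSS, beside 52.5% in the full list. The part of list length alone was not tested. With a score of at least 100 required in both lists, 50.7% of H3K9me3 peaks and 5.98% of H3K9ac peaks overlapped.

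Some single-mark peaks lay close to a peak of the other mark without touching it. There were 113 H3K9me3-only peaks (4.22%) with an H3K9ac peak within 1 kb, and 123 H3K9ac-only peaks (0.813%) with an H3K9me3 peak within 1 kb. The highest H3K9ac-only peak outside genes was of this kind. It lay at chr7:52746639-52750431, held 2650, 2661 and 2633 H3K9ac tags in uncut, 6 dpa and 9 dpa hearts, and began next to an overlapping site.

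Peaks seen with a single mark at 9 dpa recurred to very different degrees. Of H3K9me3-only peaks, 38.6% overlapped an H3K9me3 peak in uncut hearts and 49.3% at 6 dpa, and 40.4% (38.6 to 42.3%) overlapped H3K9me3 at neither time. The 757 that had H3K9me3 at all 3 times had a median of 34 tags at 9 dpa, and the 1083 that had it at no other time a median of 24 tags. H3K9ac-only peaks recurred more often: 83.6% overlapped an H3K9ac peak in uncut hearts, 86.5% at 6 dpa, and 8.84% (8.39 to 9.30%) at neither time.

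Overlapping sites recurred with both marks. Of the 2091 overlapping H3K9me3 peaks, 64.5% overlapped H3K9me3 in uncut hearts and 82.5% at 6 dpa, 77.9% overlapped H3K9ac in uncut hearts and 71.1% at 6 dpa, and 46.9% (44.7 to 49.0%) overlapped both marks at both times. H3K9ac-only peaks overlapped H3K9me3 at another time in 1.20% of cases in uncut hearts and 5.04% at 6 dpa. H3K9me3-only peaks overlapped H3K9ac at another time in 15.1% of cases in uncut hearts and 17.2% at 6 dpa. The 6 dpa list of H3K9me3 peaks is the longest of that mark, with 6216 peaks against 4488 in uncut hearts. A longer list can give more overlaps, and its part here was not tested.

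**Figure D5:**
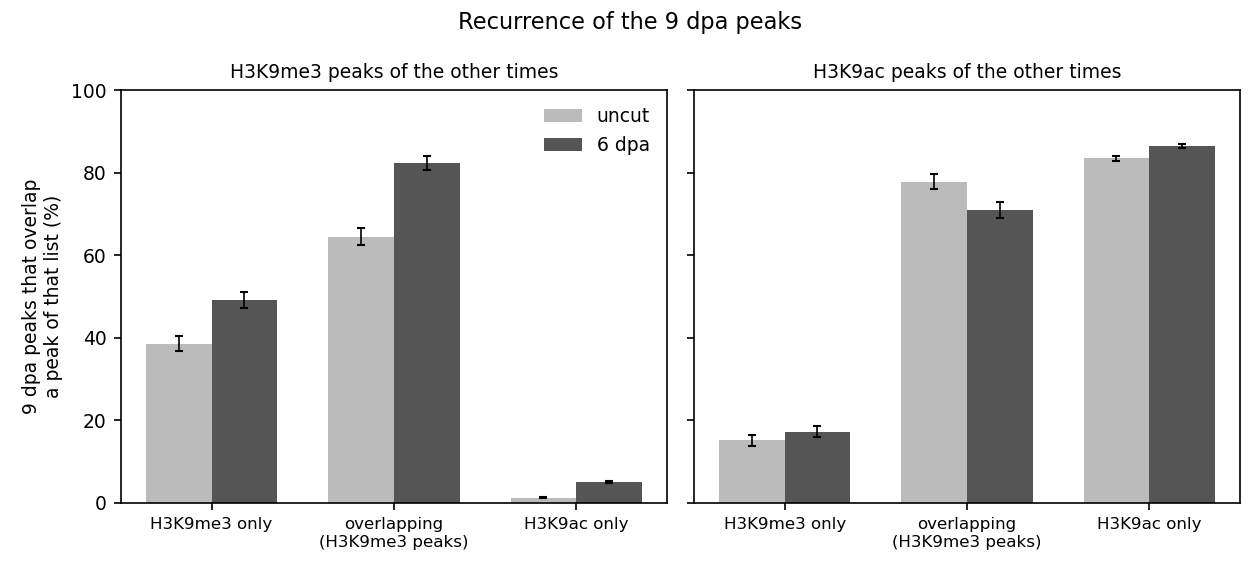
Share of the 9 dpa peaks of each class (percent) that overlap an H3K9me3 peak (left) or an H3K9ac peak (right) of uncut hearts and of 6 dpa hearts, with Wilson 95% intervals as lines. Overlapping sites stand at 64.5 to 82.5% in all 4 lists, H3K9me3-only peaks below 50% in all 4, and H3K9ac-only peaks above 80% for H3K9ac and at or below 5.04% for H3K9me3.

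At promoters, H3K9me3 was rare. Of 10067 annotated genes, 184 (1.83%) had an H3K9me3 peak within 2 kb of a TSS, 8599 (85.4%) had an H3K9ac peak and 152 (1.51%) had both. H3K9ac was thus at 82.6% of the genes with H3K9me3 (75.8% of the 128 outside the mir430 microRNA cluster), a share near or below that of all annotated genes. The other 56 genes with H3K9me3 are copies of that cluster that share the same few peaks. The 1.83% set beside the gene lists counts each of them. H3K9me3 without H3K9ac was found at 32 genes, and 1436 genes had neither. The annotation lists only transcripts that the authors assigned to a peak in at least 1 of the 6 libraries, so these shares are of annotated genes and not of all zebrafish genes.

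The 3 highest-scoring genes with H3K9me3 alone encode transcription factors of embryonic patterning. At pax3a, a paired-box factor of neural crest and muscle precursors, an H3K9me3 peak of 398 bases held 56, 63 and 55 tags in uncut, 6 dpa and 9 dpa hearts, with no H3K9ac promoter peak at any time. At sox9b, an SRY-box factor of cartilage and neural crest, the promoter peak held 139, 105 and 116 tags in the same order, again without H3K9ac. At atoh1a, a proneural factor of sensory hair cells and hindbrain, it held 67, 44 and 64 tags, without H3K9ac. In all 3 genes the mark was present at each time, and the highest and lowest raw tag counts were within 2-fold. Per kb over the background of each library the values differed more between times. They were 23.4, 6.71 and 14.96 times in uncut, 6 dpa and 9 dpa hearts at pax3a, 42.4, 9.26 and 14.1 times at sox9b, and 14.6, 4.08 and 6.15 times at atoh1a. Values per kb also follow the length of the called peak. In the same order it was 583, 867 and 398 bases at pax3a, 800, 1047 and 891 at sox9b, and 1117, 997 and 1126 at atoh1a.

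At pax3a and atoh1a the H3K9me3 peak lay inside the transcribed gene. The pax3a peak at 9 dpa, chr2:47577338-47577735, was centred 1164 bases downstream of the TSS and was labelled coding sequence, exon and intron. The atoh1a peak, chr8:29585138-29586263, was centred 956 bases downstream of the TSS in a gene that spans 29584745 to 29586383 on chromosome 8, and was labelled coding sequence, exon and 3′ UTR. Both peaks thus covered coding exons. The sox9b promoter peak, chr3:62347756-62348646, spanned the TSS at 62348422. It was labelled promoter and 5′ UTR as well as coding sequence, exon and intron. The labels have no finer position than this.

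Both sox9 copies carried a second H3K9me3 peak at the 3′ end. In sox9b, chr3:62343400-62344553, labelled coding sequence, exon, intron and 3′ UTR, held 228, 202 and 205 H3K9me3 tags in uncut, 6 dpa and 9 dpa hearts, and 56 H3K9ac tags in uncut hearts with no H3K9ac peak at 6 or 9 dpa. In sox9a, the other copy, chr12:1927429-1928896 held 267, 186 and 264 H3K9me3 tags and had no H3K9ac peak at any time. At 9 dpa these peaks held 19.2 and 19.5 times the library background per kb. They were the highest-scoring H3K9me3-only peaks in annotated transcripts away from a TSS. The promoter of sox9a held both marks, with 187, 177 and 161 H3K9me3 tags and 60, 47 and 56 H3K9ac tags, so H3K9me3 held more tags there at every time.

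Raw tags at these genes did not follow the order of the background rates. Background rates of the H3K9me3 libraries were 4.10, 10.83 and 9.24 reads per kb in uncut, 6 dpa and 9 dpa hearts. The 3′ peak of sox9a held 49.9, 13.7 and 19.5 times the background per kb in the same order. Its raw tags and its background-scaled values order the times alike, with a wider spread after scaling, and what part library depth has in this was not tested.

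At other genes of this group an H3K9ac peak lay just outside the promoter window or in another library. At p2rx3a, an ATP-gated ion channel of sensory neurons, H3K9me3 held 100, 166 and 83 tags in uncut, 6 dpa and 9 dpa hearts, and overlapping H3K9ac peaks held 92, 76 and 71 tags, the last of them more than 2 kb from the TSS. At nrip2, a nuclear receptor interacting protein, H3K9me3 had no peak in uncut hearts and held 124 tags at 6 dpa and 77 at 9 dpa, and overlapping H3K9ac peaks held 130, 169 and 81 tags, the last again outside the window. At caskb, a membrane scaffold kinase, H3K9me3 was called at 9 dpa alone with 23 tags, and H3K9ac held 34 tags in uncut hearts and 30 at 6 dpa. H3K9me3 alone in the promoter window was thus not always H3K9me3 alone at the site.

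The highest tag count of the group belonged to capn3a, the muscle protease calpain 3. Its H3K9me3 peak of 5029 bases held 1287 tags at 9 dpa, and the H3K9me3 lists of uncut hearts and of 6 dpa had no peak there. Overlapping H3K9ac peaks held 641 tags in uncut hearts and 859 at 6 dpa, and H3K9ac had none at 9 dpa. Each mark was thus called at this site in libraries where the other was not, which sets it apart from pax3a, sox9b and atoh1a. The 9 dpa peak of capn3a had a score of 161.49 and a fold enrichment over expected reads of 5.16. That enrichment was 19.27 at pax3a, 9.91 at sox9b and 15.22 at atoh1a. A site without a called peak can still hold reads, and reads outside called peaks were not examined. At hmgcll1, a lyase related to ketone body synthesis, the site held 83, 171 and 157 H3K9me3 tags and no H3K9ac, and at tbxa2r, the thromboxane A2 receptor, 16, 43 and 35 H3K9me3 tags and no H3K9ac.

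The rest of the 15 highest-scoring genes were mir738, si:ch211-223p8.8, plac8.1, zgc:174944, mansc1 and zgc:158432. The microRNA gene mir738 held 34, 78 and 47 H3K9me3 tags and si:ch211-223p8.8 held 61, 69 and 57. The other 4 held 27 to 42 tags at 9 dpa. None of these 6 had an H3K9ac promoter peak in any library. Over the 31 genes outside the mir430 cluster, 11 had an H3K9me3 promoter peak at all 3 times and 9 had one at 9 dpa alone, and the median was 30 tags at 9 dpa.

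The mir430 cluster supplied 55 of the 152 genes with both marks. These microRNAs clear maternal mRNA in the early zebrafish embryo, and their tandem copies occupy 15.2 kb at chr4:28731623-28746780 at the start of the long arm. The 57 annotated copies share the same few peaks and are not separate observations. Of the 2 copies without both marks, mir430a-11 had H3K9me3 alone and mir430a-18 had neither. At 9 dpa the cluster held 2 H3K9me3 peaks, of 1705 and 775 tags, and 1 H3K9ac peak of 1654 tags. Over those peaks H3K9me3 was at 27.8 times its background per kb and H3K9ac at 17.1 times. How reads of identical copies were placed is not given in the sources used here, so counts of single copies are uncertain.

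Outside the cluster, 97 genes had both marks at the promoter, and in 73 of them the peaks overlapped. H3K9ac held more raw tags at most of them. The median was 39 H3K9me3 tags and 133 H3K9ac tags, on peaks of 947 and 1859 bases, and H3K9me3 held more tags at 9 of the 97 genes. Per kb over the background of each library the medians were 4.19 times for H3K9me3 and 4.79 times for H3K9ac, and H3K9me3 was the higher mark at 49 of the 97. One of these 9, tyr, the tyrosinase of pigment cells, was singled out after its values were seen: it held 11, 24 and 46 H3K9me3 tags in uncut, 6 dpa and 9 dpa hearts, and H3K9ac had no peak in uncut hearts and held 46 tags at 6 dpa and 40 at 9 dpa.

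Among genes with both marks, several of those with high scores in both lists had like raw tags in both marks. LOC553228 held 346, 754 and 669 H3K9me3 tags and 772, 646 and 712 H3K9ac tags in uncut, 6 dpa and 9 dpa hearts. At zgc:112052 a peak of 386 bases held 151, 190 and 171 H3K9me3 tags and one of 451 bases held 145, 133 and 151 H3K9ac tags. At zgc:113276 the values were 1185, 1991 and 1822 H3K9me3 tags and 1878, 1727 and 1748 H3K9ac tags. Per kb over the background of each library H3K9me3 was the higher mark at all 3 genes at 9 dpa. It stood at 30.9 times beside 24.1 for H3K9ac at LOC553228, 47.9 beside 22.3 at zgc:112052 and 39.0 beside 18.8 at zgc:113276. Like the highest sites outside genes, these 3 promoter windows had both marks at all 3 times. Not all of these peaks reached the TSS. The 9 dpa H3K9me3 peak of zgc:112052, chr18:13162129-13162514, lay downstream of the TSS at 13164388. That of LOC553228, chr8:52489112-52491453, lay upstream of the TSS at 52492496.

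Housekeeping genes were among them. At rps6, a protein of the small ribosomal subunit, H3K9me3 held 123, 256 and 269 tags and H3K9ac 319, 274 and 262. At elp5, a subunit of the Elongator complex that modifies transfer RNA, H3K9me3 held 375, 824 and 762 tags and H3K9ac 827, 795 and 880. At ghitm, a protein of the inner mitochondrial membrane, H3K9me3 held 163, 278 and 203 tags and H3K9ac 321, 346 and 307, on 9 dpa peaks of 820 and 2144 bases. The H3K9me3 peak was the shorter one at ghitm and at elp5, and the longer one at rps6, where it spanned 2174 bases against 1995 bases of H3K9ac. Per kb over the background of each library H3K9me3 was the higher mark at each of these genes at 9 dpa. It stood at 13.4 times beside 8.75 for H3K9ac at rps6, 19.6 beside 10.9 at elp5 and 26.8 beside 9.54 at ghitm.

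At other named genes H3K9ac held more raw tags than H3K9me3. At jmjd6, a Jumonji-domain lysyl hydroxylase, H3K9me3 held 57, 170 and 115 tags and H3K9ac 256, 297 and 332. At mccc2, an enzyme subunit of leucine breakdown, H3K9me3 had no peak in uncut hearts and held 93 tags at 6 dpa and 69 at 9 dpa, against 212, 204 and 242 H3K9ac tags. At mir7a-3 the H3K9me3 values were 28, 46 and 43 tags and the H3K9ac values 179, 262 and 238. At 9 dpa rpf2, a ribosome assembly factor, held 57 H3K9me3 and 133 H3K9ac tags, tbc1d13, a regulator of Rab GTPases, held 59 and 86, and LOC560084 held 86 and 100. Per kb over the background of each library H3K9me3 was the higher mark at 9 dpa at 4 of these 6 genes. It stood at 8.595 times beside 8.43 for H3K9ac at jmjd6, 7.22 beside 4.06 at rpf2, 5.84 beside 4.81 at tbc1d13, and 10.1 beside 6.24 at LOC560084. It was the lower mark at mccc2, at 4.96 beside 5.43 times, and at mir7a-3, at 5.68 beside 7.91.

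The remaining genes of that set divided in the same manner in raw tags. At si:dkey-241l7.2 the 9 dpa values were 60 H3K9me3 tags and 178 H3K9ac tags, and at zgc:100920 they were 155 and 164 tags. At LOC795615, H3K9me3 held 1146, 2297 and 1699 tags on a peak of 7670 bases at 9 dpa, and H3K9ac held 1224, 1072 and 1161 tags on 7169 bases. All 3 promoters had peaks of both marks in each library.

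H3K9ac without H3K9me3 was the state of 8447 genes. The highest scores belonged to tlk2, a kinase of chromatin assembly, with 433, 620 and 525 H3K9ac tags in uncut, 6 dpa and 9 dpa hearts, and to ppp4ca, the catalytic subunit of protein phosphatase 4, with 261, 193 and 340 tags. Neither had an H3K9me3 promoter peak at any time. Also among the named genes were tpra1 with 373 tags at 9 dpa, sae1, a subunit of the SUMO-activating enzyme, with 499, and tmem206, a chloride channel, with 240. At sae1 and tmem206 the 6 dpa H3K9me3 list held a peak near the TSS, of 42 and 23 tags.

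Others of that group were likewise single-mark promoters at 9 dpa. H3K9ac held 290 tags at aktip and 472 at znf711, a zinc finger protein. It held 383 tags at hmgb1a, a chromatin protein, 324 at zgc:162544 and 479 at vangl2, a protein of planar cell polarity. H3K9me3 was called at other times at aktip, with 27 tags at 6 dpa, and at hmgb1a, with 16 tags in uncut hearts. The genes gnptg and tsr3 start back to back and shared 1 peak of 365 tags. Another 2 entries of the 15 are transcripts without a gene symbol in the files, and 1 of them had an H3K9me3 peak of 23 tags in uncut hearts. Away from promoters, the highest-scoring H3K9ac-only peak inside a gene was in cfp, the complement factor properdin, with 225, 266 and 238 tags.

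Most annotated heart genes had H3K9ac at the promoter, as did most annotated genes of any kind, and none of those on the lists had H3K9me3 there. The lists of cardiac contractile genes (23 annotated), cardiac transcription factors (18), endothelium and endocardium (16), and epicardium and extracellular matrix (18) held no gene with an H3K9me3 promoter peak at 9 dpa, beside 1.83% of all annotated genes. With so low a background, lists of this size give no result about their members from such a count. H3K9ac was at the promoter of 20 contractile genes, 13 cardiac factors, 12 vessel genes and 12 epicardial and matrix genes, shares of 66.7 to 87.0%, beside 85.4% of all annotated genes.

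Among contractile genes, vmhcl, a ventricular myosin heavy chain, held 146, 54 and 126 H3K9ac tags in uncut, 6 dpa and 9 dpa hearts, and cmlc1, a myosin light chain, held 123, 74 and 118. The muscle alpha-actinin gene actn2 and the myoglobin gene mb had neither mark at the promoter at 9 dpa. Among cardiac factors, hand2 held 476, 217 and 577 H3K9ac tags and gata5 292, 311 and 542, while isl1, tbx2a, irx1a, mef2d and srfb had neither mark at 9 dpa. Some of these had H3K9ac at other times, such as isl1 with 86 tags in uncut hearts. Likewise irx1a held 39 tags in uncut hearts and 46 at 6 dpa. In the vessel list kdr, a VEGF receptor, held 106, 45 and 107 tags, and fli1a and flt4 had neither mark at 9 dpa.

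Lists of regeneration signalling and of the cell cycle had no H3K9me3 promoter peak at 9 dpa either. H3K9ac was at 32 of 38 signalling genes (84.2%) and 34 of 42 cell cycle genes (81.0%), beside 85.4% of all annotated genes, of which 1.83% had H3K9me3. At ctnnb1, the beta-catenin of Wnt signalling, H3K9ac held 321, 393 and 381 tags, and at vegfab, a vessel growth factor, 138, 137 and 241. At the cell cycle inhibitor cdkn1bb it held 442, 577 and 589 tags, and at the cyclin ccnd1 87, 127 and 211. Lacking both marks at 9 dpa were the signalling genes fgfr1a, fgfr3, lef1, notch3, tcf7 and wnt5b and 8 cell cycle genes, among them aurka, aurkb, ccnb1 and mcm2.

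The list of genes that write, erase and read these marks has 68 entries, of which 41 were annotated. All 41 had H3K9ac at the promoter and none had H3K9me3, beside 85.4% and 1.83% of all annotated genes. A gene is annotated only if a peak of at least 1 of the 6 libraries was assigned to it. Because that filter draws on H3K9ac peaks, the share gives no result about the list. At brd2a, a bromodomain reader of acetylated histones, H3K9ac held 760, 856 and 818 tags, at kdm4b, an H3K9me3 demethylase, 278, 317 and 325, and at cbx5, the HP1 alpha reader of H3K9me3, 298, 281 and 304. Their median was 83.1 H3K9ac tags per kb, beside 78.5 over all annotated genes with a peak.

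Blood genes had H3K9ac at the promoter about as often as all annotated genes (85.4%). Of 19 erythrocyte and thrombocyte genes 16 had it (84.2%), and of 12 leukocyte genes 10 (83.3%), with no H3K9me3 in either list. At alas2, the haem synthesis enzyme of red cells, H3K9ac held 266, 276 and 381 tags, and at tal1, a blood transcription factor, 332, 355 and 450. The red cell microRNA genes mir144 and mir451a shared 1 peak of 440, 525 and 775 tags. Fewer cells of a type and less mark per cell cannot be told apart in tissue libraries.

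Ribosomal, respiratory and proteasome genes nearly all had H3K9ac, and 4 of them also had H3K9me3. H3K9ac was at all 76 ribosomal protein genes, 77 of 78 respiratory chain genes and 40 of 41 proteasome genes, beside 85.4% of all annotated genes. Because the annotation filter draws on H3K9ac peaks, these H3K9ac shares give no result about the lists. H3K9me3 was at 2.63%, 1.28% and 2.44% of these lists, which is 2, 1 and 1 genes, beside 1.83% of all annotated genes with the mir430 copies counted. Counts this small give no result about the lists. H3K9me3 was called at rplp0, a ribosomal stalk protein, with no peak in uncut or 6 dpa hearts and 126 tags at 9 dpa, beside 247, 188 and 250 H3K9ac tags. At ndufa5, a subunit of respiratory complex I, H3K9me3 was called at 9 dpa alone with 36 tags beside 165 H3K9ac tags, and at psmd3, a proteasome lid subunit, it held 75 tags at 6 dpa and 68 at 9 dpa beside 182 and 162 H3K9ac tags. Of these 4 genes, rps6 (described above) was the one with H3K9me3 at all 3 times.

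A few other lists held single members with H3K9me3. The AP-1 list of 29 genes had fosl2, a Fos-family factor, with 23 H3K9me3 and 195 H3K9ac tags at 9 dpa in peaks that did not overlap. Among 39 Sox, forkhead and Kruppel-like genes, klf7a held 22 H3K9me3 and 84 H3K9ac tags beside sox9a and sox9b. The glutamate transporter gene slc1a2b, 1 of 168 solute carrier genes, held 27, 26 and 21 H3K9me3 tags with no H3K9ac, and trim35-27, 1 of 32 TRIM genes, held 30 H3K9me3 tags at 9 dpa alone. Shares of these lists ran from 0.595% to 7.69%, beside 1.83% of all annotated genes.

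Some families had neither mark at their starts at 9 dpa, the state of 14.3% of all annotated genes. All 25 annotated clustered protocadherins, adhesion genes of neurons, and the 3 annotated hox genes, hoxb2a, hoxb3a and hoxb4a, lacked both. As members of gene clusters, the 25 may not be separate observations. A gene that lacks both is annotated only through a peak elsewhere in or near it or in another library. These counts therefore give no result about the families. Of 7 germline genes 6 lacked both, among them piwil1 and sycp1, and buc, the organizer of the Balbiani body in oocytes, held 171 H3K9ac tags. The 48 genes with znf symbols had no H3K9me3 promoter peak at 9 dpa and H3K9ac at 41, which is the share of all annotated genes. Transcription was not measured in these libraries.

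Inside genes, the highest counts of H3K9me3-only peaks were in long transcripts of the chromosome 4 long arm. A longer transcript can hold more peaks, and these counts were not divided by length. The whole arm held 7.22 H3K9me3-only peaks per Mb. The transcript zgc:174703 spans 476.0 kb and held 10 H3K9me3-only peaks, 2 overlapping H3K9me3 peaks and 5 H3K9ac peaks. The transcript zgc:174698 spans 745.8 kb and held 8, 7 and 9, and zgc:174650 spans 832.2 kb and held 5, 10 and 17. Elsewhere, ddrgk1 on chromosome 5 spans 920.3 kb and held 5, 7 and 19. On chromosome 22, si:dkey-19a16.4 held 4 H3K9me3-only peaks within 39.5 kb and no H3K9ac peak.

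Outside genes, the highest-scoring H3K9me3-only peaks were of more than 1 kind. The peak at chr17:46968065-46969540 held 657 tags and that at chr3:55103655-55111246 held 2998 tags, and neither place had a peak of either mark in any other library. At chr10:22900972-22907255 H3K9me3 held 1459 tags at 6 dpa and 1337 at 9 dpa, and H3K9ac held 951 tags in uncut hearts and 1083 at 6 dpa. At chr16:47624251-47625235 H3K9me3 was called at all times, with 57, 70 and 69 tags, and H3K9ac at 6 dpa with 54. At the last 2 sites the other mark was thus called in another library. As at capn3a, a place without a called peak can still hold reads.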

How the data were processed

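The authors deposited 1 peak list per library, 6 in all, in which RefSeq transcripts are attached to peaks. The submitters' processing notes name the build danRer10 and the tools MACS 1.4.2, Bowtie2 2.2.5 and DiffBind 1.16.3. The role and settings of each tool, a control library, read totals and the number of hearts pooled are not given in the sources used here. A peak's deposited values, per the file headers, are its tag count, which is not normalized, a score equal to 10 times the negative log10 of a p-value, and a fold enrichment, a ratio to the expected reads. A longer peak holds more tags, and raw tags also follow sequencing depth.

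Rows that repeat a chromosome, start and end were merged. Peaks overlapped if they shared 1 base, and a promoter peak was one within 2 kb of a TSS of the 10299 annotated transcripts (10067 genes). The background rate was solved from tags, length and score under a Poisson distribution, as the most frequent value among peaks. Gene names are those of the files; 9689 of 9782 gene IDs were found in the name table. The overlap steps were tested on simulated peaks. Python 3.11.15, pandas 2.3.3, numpy 2.4.6, scipy 1.17.1 and matplotlib 3.10.9 were used.

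Named genes were the 15 highest by H3K9me3 score with H3K9me3 alone, the 15 highest by the lower of the 2 scores with both marks, and the 15 highest by H3K9ac score with H3K9ac alone. They further included list members with H3K9me3, up to 4 list members with H3K9ac alone, and the 5 highest-scoring peaks per class and position. The classes and gene lists were chosen with earlier results of these data known, and 2 list patterns were narrowed and matching by gene synonyms was dropped afterwards. One gene that the rule names is not reported here. Sequences are not printed.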

Additional observations from a re-analysis of the deposited data

How the results depend on the processing

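No paired analysis was possible because at 9 dpa each mark has 1 library and the results come from no test. The 3 times were not used as pairs. Of 55 recomputed values, 25 stayed inside the counting interval of the reported share or within 1.5 times the reported count, and 30 moved. Those under an overlap of at least 50% of the shorter peak and under a long arm from 24 Mb all stayed. With a score of at least 100, overlapping shares were 50.7% of H3K9me3 and 5.98% of H3K9ac peaks, TSS shares were 3.796% (H3K9me3 only) and 61.3% (H3K9ac only), the long-arm share of H3K9ac-only peaks was 2.505%, and 85 genes had both marks. With the H3K9ac list reduced to the length of the H3K9me3 list, the same quantities were 5.85% and 5.76%, 69.7% of H3K9ac-only peaks at a TSS, 6.81% of overlapping H3K9me3 peaks at a TSS, 1.25% on the long arm, 86 genes with both marks and 98 with H3K9me3 alone. With duplicate rows kept, which weights a peak by its transcripts, overlapping shares were 60.6% and 21.4%, TSS shares 73.5% (H3K9me3 only), 52.6% (overlapping H3K9me3) and 87.1% (H3K9ac only), and long-arm shares 76.0%, 87.3% and 1.20%. TSS shares were 0.933%, 2.44% and 51.3% with a 1 kb window and 6.16%, 6.07% and 54.6% with a 5 kb window, where 306 genes had both marks and 54 had H3K9me3 alone. Without the mir430 cluster, an alternative chosen after seeing the data, 97 genes had both marks. H3K9ac-only peaks had a higher TSS share than H3K9me3-only and overlapping H3K9me3 peaks under each alternative that gave TSS shares, while overlapping H3K9ac peaks were not recomputed. Precision is limited by 1 library per mark, by H3K9me3 peaks with a median of 34 tags, and by a depth that is known only through the estimated background.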
